A study of Mus musculus with 8 samples.

Results

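Among cells dissociated from the ascending thoracic aorta of aged mice, 58 barcodes carried at least 2 unique molecular identifiers (UMIs, one per captured molecule) of Epcam, the epithelial adhesion molecule, together with little RNA of the mesothelium, the endothelium or the vessel wall. They were 58 of the 11301 barcodes with at least 500 genes, at least 1000 UMIs and under 15% mitochondrial UMIs (0.513%, exact Clopper-Pearson 95% interval 0.390% to 0.663%), and those in turn came from 26916 deposited barcodes. The limits were at most 1 UMI of Msln and Upk3b together, at most 1 UMI of Cdh5, Kdr and Cldn5 together, Dcn under 0.3% of UMIs, and Myh11 with Tagln under 0.4%. Of the 58, 12 were set as thymic by at least 3 UMIs of Psmb11, Prss16, Ccl25 and Tbata together, 8 as airway by at least 10 UMIs of Scgb1a1 and Bpifa1 together, 1 met both limits and 37 met neither. These UMIs chose the cells, so the levels of those genes are given below as a description.

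The donors were 3 wildtype mice aged 81, 84 and 88 weeks, and the study read RNA and hashtag antibodies from the same cells (CITE-seq). The tissue was digested with collagenase and elastase, strained and depleted of dead cells. All 3 animals share the wildtype genotype, and the labels used here give no strain, sex or treatment. The 8 deposited samples are 4 gene expression libraries and 4 hashtag libraries of a single pool, whose values are not kept apart, and no barcode occurred more than once (0 duplicates among 26916). With 1 animal for each age and the cell classes drawn from the same counts, no test between groups was made. Intervals below are exact 95% counting intervals, which cover counting error only.

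Thymic and airway epithelium both arise from foregut endoderm. In the thymus, cortical epithelial cells depend on the transcription factor Foxn1, draw in progenitors with the chemokines Ccl25 and Cxcl12, and display peptides on MHC molecules to developing T cells, using a proteasome with the cortex-specific subunit Psmb11 and the proteases Ctsl and Prss16. Medullary cells display antigens of other tissues under Aire and attract T cells with Ccl21a. In the conducting airway, club cells secrete secretoglobins and antimicrobial proteins and metabolise inhaled chemicals, ciliated cells move mucus, and basal cells with Krt5, Krt15 and Trp63 serve as progenitors. The thymus and the trachea lie next to the ascending aorta in the chest.

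The sequences below are shown because the account rests on them: the hashtag oligonucleotides name the animal of a cell, and a promoter is given for a gene of each of the thymic and airway lists. The hashtag oligonucleotides are printed 5′ to 3′ as in the deposited feature table, with no part in capitals.
hashtag 1 (81 weeks): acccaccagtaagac
hashtag 2 (84 weeks): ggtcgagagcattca
hashtag 3 (88 weeks): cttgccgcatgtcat

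Promoter windows of 250 bases before the start of a gene came from RefSeq (GRCm38.p6), which held 11 of the 14 genes of the cortical thymic list and 14 of the 21 genes of the club and secretory list. The letters GACGC, the core recognised by Foxn1, were looked for on both strands, where the other strand reads GCGTC. They occurred in 6 of 11 cortical and 0 of 14 club promoters, against 22.6% of all 27025 promoters. The letters CAAGTG, a core of the lung and thyroid factor Nkx2-1 that reads CACTTG on the other strand, occurred in 1 of 11 cortical and 4 of 14 club promoters, against 11.6% of all. Neither motif contains the other, and a match describes letters only, not binding. The first window precedes Psmb11 (chr14:54625310-54629556) and lies at chr14:54625060-54625309 on the plus strand, with both matches to the first motif in capitals. The second precedes Scgb3a1 (chr11:49663595-49665118), a secretoglobin of airway secretory cells, and lies at chr11:49663345-49663594 on the plus strand, with the match to the second motif in capitals.
Psmb11 promoter: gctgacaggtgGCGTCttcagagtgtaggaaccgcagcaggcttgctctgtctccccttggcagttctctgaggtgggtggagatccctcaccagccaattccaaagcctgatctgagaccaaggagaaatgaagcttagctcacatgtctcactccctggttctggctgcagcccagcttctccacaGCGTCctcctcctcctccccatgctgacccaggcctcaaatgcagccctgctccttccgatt
Scgb3a1 promoter: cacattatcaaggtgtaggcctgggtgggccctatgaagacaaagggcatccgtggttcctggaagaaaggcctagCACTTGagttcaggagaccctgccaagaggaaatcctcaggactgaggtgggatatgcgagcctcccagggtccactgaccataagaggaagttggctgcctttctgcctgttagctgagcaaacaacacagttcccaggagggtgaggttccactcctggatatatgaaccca

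The 58 barcodes held a median of 11060.5 UMIs (3296 to 62680) and 3635.5 genes, against a median of 8822 UMIs over all filtered barcodes. The 12 thymic cells had a median of 24035 UMIs and the 8 airway cells 32058.5 UMIs. No thymic or airway cell was called a doublet by Scrublet, which marked 360 of the 11301 barcodes (3.19%), but 2 thymic cells, 1 airway cell and the cell meeting both limits carried more than 1 hashtag. The Epcam minimum fell within a range of low values: 19 members had 2 Epcam UMIs and 7 had 3, while 80 barcodes that met every other limit had 1.

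The epithelial label was checked against keratins that simple epithelia share. At least 1 UMI of Krt8 or Krt18 was found in 39 of the 58 barcodes, among them all 12 thymic and all 8 airway cells, and in 0 of the other 19. Those 19 are described as keratin-negative barcodes and are given no cell type. Of the remaining keratin-positive members, 18 met neither the thymic nor the airway limit, and some of them held a single keratin UMI. The same check was met by 927 of 5049 smooth muscle and 74 of 1287 endothelial cells. It was also met by 30 of 33 mesothelial cells, those with at least 3 UMIs of Msln and Upk3b together. Meeting it therefore does not by itself name an epithelial cell.

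Grouping the 58 by their whole transcriptome (Leiden clustering) gave 5 clusters. Cluster 4 held 8 cells, 7 thymic and the cell meeting both limits, and was cortical thymic epithelium-like: 13 of the 14 cortical markers were higher there than in the other members. Cluster 5 held 4 airway cells and was club-like, with 20 of 21 club and secretory markers higher. Cluster 2 held 16 cells, 4 airway, 11 other keratin-positive and 1 thymic, and was airway-like, with mixed basal and secretory RNA. There 5 of 6 basal and 3 of 21 club and secretory markers were higher than in the other members, which include cluster 5. In all 16 cells the club and secretory list still gave more UMIs than the basal list, for example 817 against 113. All 9 ciliated markers were also higher in cluster 2, but 1 of its cells had 3 or more UMIs of the ciliated list, with 128. Cluster 3 held 11 cells, 4 thymic and 7 other keratin-positive, and cluster 1 was exactly the 19 keratin-negative barcodes. Neither was named. The clusters were built from the same genes, so these counts describe the grouping.

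**Figure D1:**
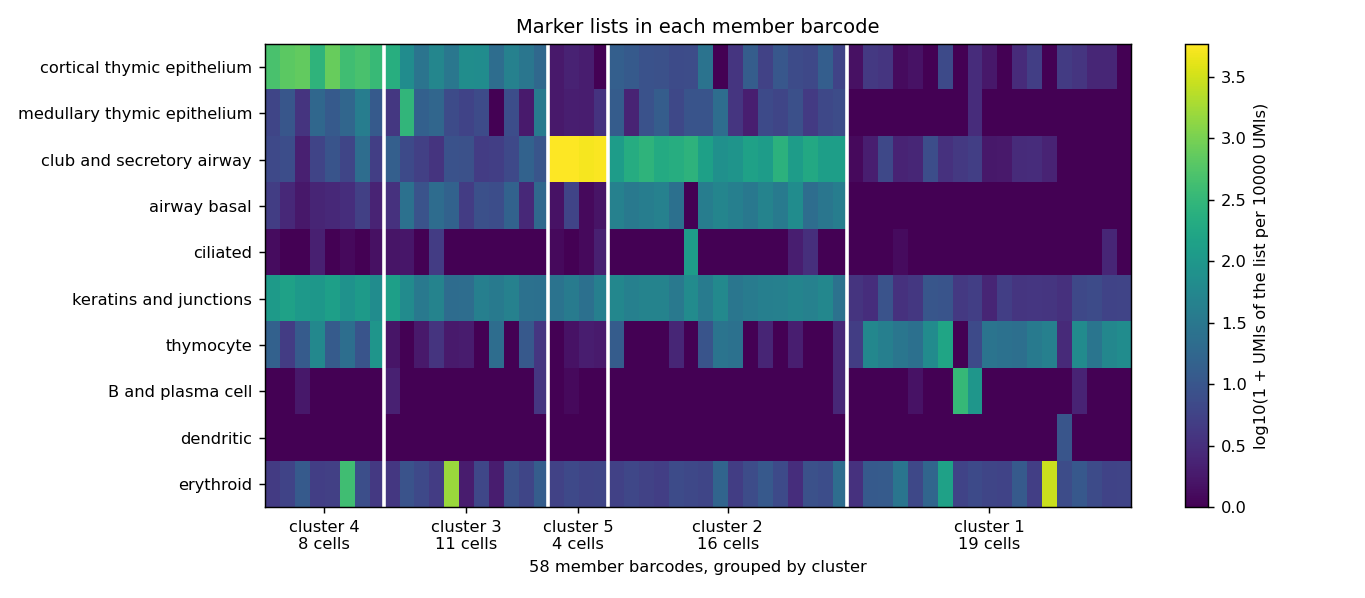
Each column is 1 of the 58 barcodes, grouped by cluster, and each row is a marker list. Colour is log10 of 1 plus the list's UMIs per 10000 UMIs of the barcode. The cortical list was brightest in the 8 cells of cluster 4 and the club list in the 4 cells of cluster 5. The thymocyte list had raw medians of 58 UMIs in cluster 4 and 30 UMIs in cluster 1. Median depths there were 36482.5 and 8218 UMIs, so per 10000 UMIs, as plotted, the cluster 1 median was the higher.

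UMIs were summed over the 12 thymic cells (335094 UMIs) and over the 8 airway cells (228084 UMIs) and expressed as counts per 1e6 UMIs of the class (CPM). Of 4124 genes with at least 20 UMIs in the pair of classes, 842 were at least 4-fold higher in thymic cells (20.4%) and 131 at least 4-fold higher in airway cells (3.18%). The median gene stood at a log2 ratio of 1.03; the club and secretory list made up 37.9% of airway UMIs and 0.0901% of thymic UMIs. With that list left out of the totals the median fell to 0.34 and the counts were 317 and 176, so that 64.3% of the genes past the fold were higher in thymic cells instead of 86.5%. All 97 genes past the fold that were on a list or named by rank kept their direction with those totals, and 88 stayed past it.

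The cortical and secretory lists lay apart between the classes. Of 13 measured cortical genes 12 were past the fold toward thymic cells and 0 toward airway cells, or 8 of the 9 that the limits did not use. Of 20 measured club and secretory genes all 20 were past the fold toward airway cells, or 18 of 18 outside the limits. Over all genes the shares were 20.4% toward thymic and 3.18% toward airway cells. The median log2 ratio was 6.22 for the cortical list and -6.46 for the club list, against 1.03 over all genes tested. The lists hold the genes that define the classes, so the split is a description.

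**Figure D2:**
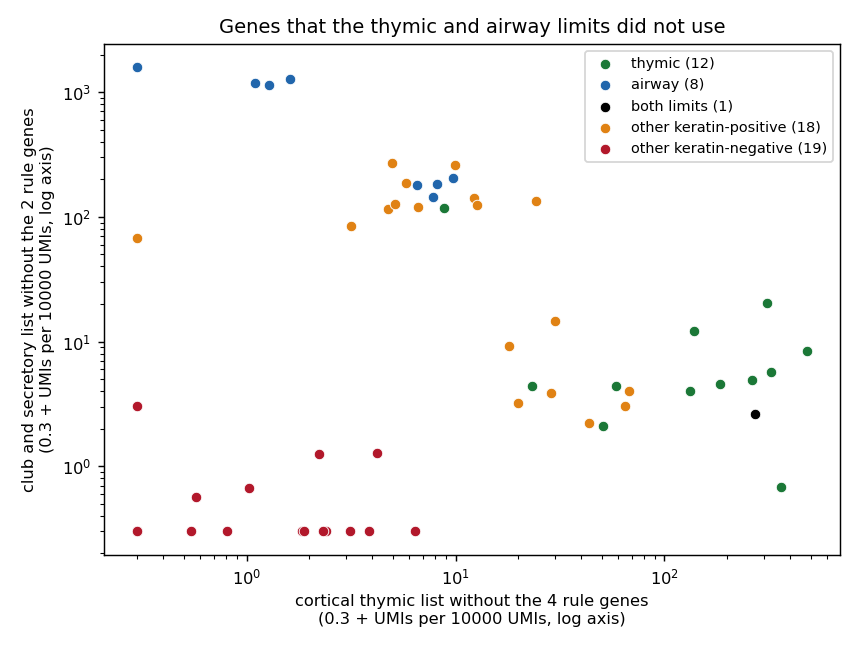
Each point is 1 member barcode. The horizontal axis gives UMIs of the cortical thymic list without its 4 limit genes and the vertical axis UMIs of the club and secretory list without Scgb1a1 and Bpifa1, both per 10000 UMIs plus 0.3 on log axes, with colours for the 5 classes. The thymic cells spread to the right, the airway cells upward, and the 19 keratin-negative barcodes lay low on both axes.

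Thymic cells differed in how much of the cortical programme they carried. Ccl25, the chemokine that attracts thymic progenitors through Ccr9, had a lowest value of 0 UMIs, a median of 170.0 and a highest of 499 in the 12 cells. A set of 8, called Ccl25-rich, held between 85 and 499 UMIs, and the other 4 held at most 3, with no cell between. Prss16, a serine protease of the cortex, reached 401 UMIs with a median of 97.0. Tbata, a thymus and testis gene, reached 440 with a median of 202.0, and Psmb11 reached 98 with a median of 12. The 4 low cells met the thymic limit on few molecules.

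Low levels of Ccl25 were also found in other cells. It stood at 7640 CPM over the thymic cells, against 14.2 CPM (11.7 to 17.1) in 1287 endothelial cells, 9.60 CPM in 5049 smooth muscle cells and 24.8 CPM (22.2 to 27.8) in 2340 cells with T cell receptor complex or Rag1 RNA, here called thymocyte-class cells. At least 1 Ccl25 UMI was found in 91.7% of thymic cells at a median depth of 24035 UMIs and in 7.61% of endothelial cells at a median of 4435 UMIs. After thinning each cell to 1000 UMIs the shares were 75.0% and 1.55%. Prss16 reached 0.799 CPM and Psmb11 0.639 CPM in the thymocyte class.

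Peptide presentation genes were high in the thymic cells. Of 24 measured genes for antigen presentation and the proteasome, 19 were past the fold toward thymic cells, 0 toward airway cells and 5 lay between, against 20.4% of all genes toward thymic cells. Of the 19, 17 are not limit genes, and the median log2 ratio was 3.10. Cd74, the invariant chain that escorts MHC class II, had 0 to 365 UMIs (median 176.5) in thymic cells and 1 UMI in all airway cells, a ratio of 1623 with a counting interval of 291 to 64119. H2-Ab1, a class II chain, had 1310 UMIs in 11 of 12 thymic cells and 0 in airway cells, so it was at least 297-fold higher, where a count of 0 over the class is set to 3 UMIs here and below. Ciita, the master regulator of class II genes, had 34 UMIs against 0, at least 7.71-fold. Class I genes differed less, with H2-K1 5.95-fold (4.73 to 7.57) and B2m 6.00-fold (4.67 to 7.81) higher in thymic cells. The class I peptide transporter subunit Tap1 had 42 UMIs against 0.

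The catalytic β5 subunit of the proteasome exists as the constitutive Psmb5, the immune form Psmb8 and the thymic form Psmb11. Thymic cells held 104, 55 and 330 UMIs of these, so Psmb11, which is one of the limit genes, made up 67.5% (63.1% to 71.6%) of the 3. Most of its UMIs came from 3 cells, with 98, 88 and 71, while another Ccl25-rich cell held 1, so the interval does not cover the spread between cells. Airway cells held 22, 10 and 0 UMIs. Smooth muscle cells held 11088, 503 and 4, and thymocyte-class cells 1491, 3047 and 8. The share of Psmb11 was 69.5% in the 8 Ccl25-rich cells and 11.8% (1.46% to 36.4%) in the other 4, where it rested on 2 of 17 UMIs. These are 3′ UMI counts, which are not scaled by gene length. The other immune subunits were also higher in thymic cells, Psmb10 by 40.5-fold (18.4 to 111), while Psmb8 stood at 3.74-fold (1.89 to 8.24) and did not reach the 4-fold limit.

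Lysosomal protease RNA was the most abundant of the cortical list. Ctsl, the cathepsin that trims class II peptides in the cortex, had 5 to 1292 UMIs (median 544.5) in thymic cells and 0 to 20 in airway cells, at 18669 against 249.9 CPM, a ratio of 74.7 (57.6 to 98.8). Endothelial cells had 529 CPM of Ctsl and smooth muscle cells 279 CPM, so the airway level was no higher than that of wall cells. Ly75, an endocytic receptor of cortical epithelium, had 351 UMIs in 8 of 12 thymic cells and 1 in airway cells, and Cd83, which keeps class II at the surface, had 152 against 0, at least 34.5-fold higher.

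Transcription factors of the thymus and airway were measured next. Of 10 measured factors 2 were past the fold toward thymic cells, a share near the 20.4% of all genes, 4 toward airway cells, against 3.18% of all genes, and 4 lay between. Foxn1 had 0 to 10 UMIs (median 2.5) in thymic cells, was present in 11 of 12 and had 0 UMIs in airway cells, at least 9.08-fold higher. Pax1, which acts in the pharyngeal pouches, had 193 UMIs in 11 of 12 cells against 0, at least 43.8-fold higher. In the other direction, Nkx2-1 had 34 UMIs in 7 of 8 airway cells and 0 in thymic cells, at least 16.7-fold higher, and Sox2, a factor of the proximal airway, had 30 UMIs in 8 of 8 against 1. Ehf, an epithelial Ets factor, had 33 against 0. Pax9 and Trp63 did not reach the fold, with ratios of thymic over airway of 1.76 (0.878 to 3.76) and 1.31 (0.808 to 2.17).

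Chemokines and growth factors, a list not limited to signals toward T cell progenitors, formed a further group. Of 10 measured chemokine and growth factor genes 6 were past the fold toward thymic cells (5 without the limit gene Ccl25) and 1 toward airway cells, against 20.4% and 3.18% of all genes. Among the 6 was Ccl21a, whose 383 thymic UMIs all came from 1 cell. Cxcl12 had 514 UMIs in 11 of 12 thymic cells and 1 in airway cells, and Il7, the survival factor of thymocytes, had 69 in 9 cells against 0, at least 15.7-fold higher. Kitl, the stem cell factor, was between the limits at 2.30-fold (1.22 to 4.66). Dll4, the Notch ligand that commits progenitors to the T lineage, had 11 UMIs in 5 thymic cells and 0 in airway cells and was under the 20 UMIs needed for a ratio. The gene past the fold toward airway cells was Cxcl17, a mucosal chemokine, with 80 UMIs in 5 of 8 cells against 0.

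Keratins were unequal between the classes. Krt8 was 7.57-fold (6.14 to 9.43) and Krt18 12.4-fold (10.1 to 15.5) higher in thymic cells, and Krt17 20.5-fold (11.6 to 40.1). Krt19, a keratin of ducts and airways, was 27.0-fold (14.4 to 57.3) higher in airway cells, and the tight junction genes Cldn7 (49 UMIs against 0) and Cldn3 (21 against 2) also lay there. Epcam itself, Krt7, Cdh1, Perp and Spint2 did not reach the fold. Of the 15 measured genes for keratins and junctions, 2 were past the fold toward thymic cells, 4 toward airway cells and 9 lay between. Over all genes tested the shares were 20.4% toward thymic and 3.18% toward airway cells.

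Genes outside the lists were named by rank. The largest by lower interval bound toward thymic cells included Fabp5, a fatty acid binding protein (3728 UMIs against 3, ratio 846, interval 289 to 4103), Fxyd2, a regulator of the sodium pump (768 against 0, at least 174-fold), Crip3, a LIM domain protein (353 against 0, at least 80.1-fold), Inmt, a methyltransferase (235 against 0, at least 53.3-fold), and Ubd, a ubiquitin-like modifier (171 against 0, at least 38.8-fold). Synm, an intermediate filament protein, had 182 against 0, and Snhg11, a long non-coding RNA, 234 against 0. Fabp5 and Snhg11 were found in 11 of 12 thymic cells and Inmt in 6. Their RNA lay mostly in the 8 Ccl25-rich cells: the other 4 held 14 of the 3728 Fabp5 UMIs, 1 Fxyd2 UMI and 0 of Crip3 and Inmt. Toward airway cells the list was led by secretory genes, described with those cells below.

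**Figure D3:**
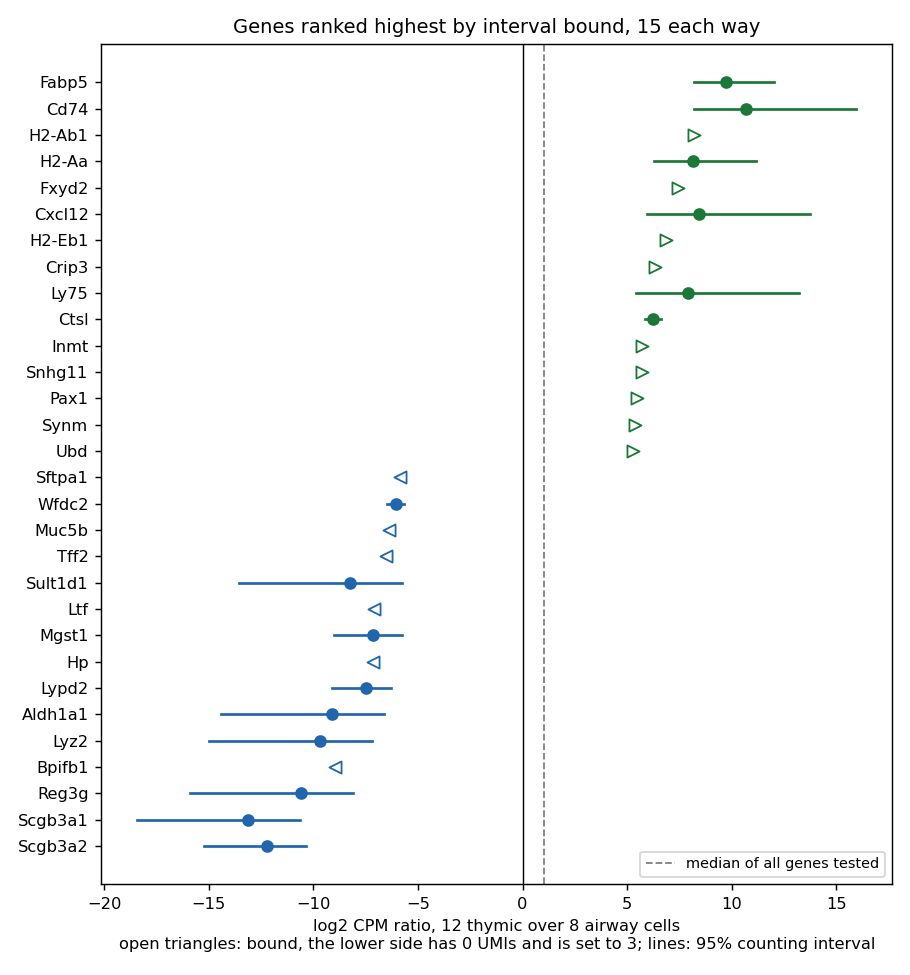
Log2 CPM ratio of the 12 thymic over the 8 airway cells for the 30 genes named by rank. Points are ratios with 95% counting intervals as lines, open triangles are bounds for genes with 0 UMIs on the lower side, and the dashed line is the median of all genes tested at 1.03. Each of the 15 upper genes lay right of the median and each of the 15 lower genes lay left of 0.

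RNA of T cells moved with the thymic class. The thymocyte list gave 0 to 342 UMIs in thymic cells (median 15.5), with at least 3 in 9 of 12, and 0 to 4 in airway cells. All 10 measured thymocyte genes were past the fold toward thymic cells, against 20.4% of all genes. Among them were Rag1 (88 UMIs against 3) and Lck (122 against 1), a recombinase and a T cell kinase. The thymic cell with 342 list UMIs gave 43 of the 88 Rag1 and 93 of the 122 Lck UMIs. None of the 12 list genes was at 0 in the thymic class. The part of this RNA in the thymic result was not tested. Among members with under 3 thymocyte UMIs, 3 thymic and 6 airway cells remained. Of 1119 genes tested in them, 84 were past the fold toward thymic and 48 toward airway cells. That limit also removed most of the Ccl25-rich cells and much of the depth, so these counts do not isolate T cell RNA. Erythroid genes also lay toward thymic cells, with 4 of 4 measured past the fold, against 20.4% of all genes. A cell with more than 1 hashtag gave 1550 of the thymic erythroid UMIs. Without cells of more than 1 hashtag, Hbb-bs stood at a log2 ratio of -0.073 and Hba-a2 at -0.12.

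The cell meeting both limits was deeper than most, with 59916 UMIs, and carried more than 1 hashtag. It held 91 Ccl25, 127 Prss16, 192 Tbata and 1480 Ctsl UMIs, all within cluster 4. It met the airway limit on 9 Scgb1a1 and 1 Bpifa1 UMIs, and its Cyp2f2 was at 0. Its thymocyte list gave 555 UMIs, more than in any of the 12 thymic cells. Scgb1a1 stood at 150 CPM, against 164 in endothelial cells, 184 in thymocyte-class cells and 108 in smooth muscle cells, so its airway RNA was at the level found in cells that should lack it.

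Within cluster 4 the raw UMIs of single genes varied between cells, whose depth ran from 21459 to 62680 UMIs. Of the cortical limit genes, Psmb11 was at 1, 4, 7, 20, 23, 71, 88 and 98 UMIs in the 8 cells. Prss16 ran from 69 to 401, Ccl25 from 85 to 499 and Tbata from 159 to 440. Ctsl ran from 514 to 1480 UMIs (median 828.5), Krt8 from 83 to 199 (median 111.5) and Cd74 from 162 to 365 (median 284.5), and every one of the 8 cells had these genes. Wnt4, a secreted signal that acts on Foxn1, ran from 10 to 44 UMIs, and 4 of 8 airway cells also held it, with 50 UMIs in all. Foxn1 was found in 8 of 8 cells and Dll4 in 5. The medullary genes Ccl21a, Aire and Fezf2 were at 0, and a count of 0 in 333845 UMIs allows up to 8.99 CPM each (3 UMIs). Krt5 and Krt14, keratins of medullary and basal cells, had 17 and 19 UMIs in all. Krt17, also on the medullary list, was found in each of the 8 cells, at 7 to 99 UMIs.

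Cluster 3 carried class II RNA, and its cortical limit genes came mostly from 1 thymic cell, with 94 Ccl25, 27 Tbata and 23 Psmb11 UMIs. Cd74 had 22 to 183 UMIs (median 76) in its 11 cells, at 7048 CPM, beside 6485 CPM in cluster 4. Ctsl was 3841 CPM (3502 to 4203) there against 22271 CPM in cluster 4, and Krt14 438 CPM (329 to 572) against 56.9 CPM (34.3 to 88.9). Foxn1 was found in 7 of 11 cells, Pax1 in 10 and Kitl in 11. Krt8 was found in 11 of 11. Leading genes were Ifi27l2a and Isg15, which respond to interferon, Gas1, a growth arrest gene, Col12a1, a collagen, and Igfbp5, a binding protein of insulin-like growth factors.

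Ccl21a was found in 2 members. A thymic cell of 14750 UMIs in cluster 3 held 383 Ccl21a UMIs and a medullary list sum of 437, and no other thymic cell held any Ccl21a. A keratin-positive cell of 3369 UMIs in the same cluster held 9 Ccl21a UMIs and a medullary list sum of 12. The cell of 14750 UMIs also held 3 Ccl25, 9 Prss16 and 2 Psmb11 UMIs, so it met the thymic limit on cortical genes. Aire had 1 UMI in all 12 thymic cells and Fezf2 had 0. Of 5 measured medullary list genes, 3 were past the fold toward thymic cells and 1 toward airway cells. Over all genes the shares were 20.4% and 3.18%. The thymic tuft list had at most 1 UMI per gene in thymic cells. A cell of 7011 UMIs, thymic by 3 Ccl25 UMIs, lay in cluster 2 and held 83 club list UMIs, 39 of them Cyp2f2, with 0 Foxn1.

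**Figure D4:**
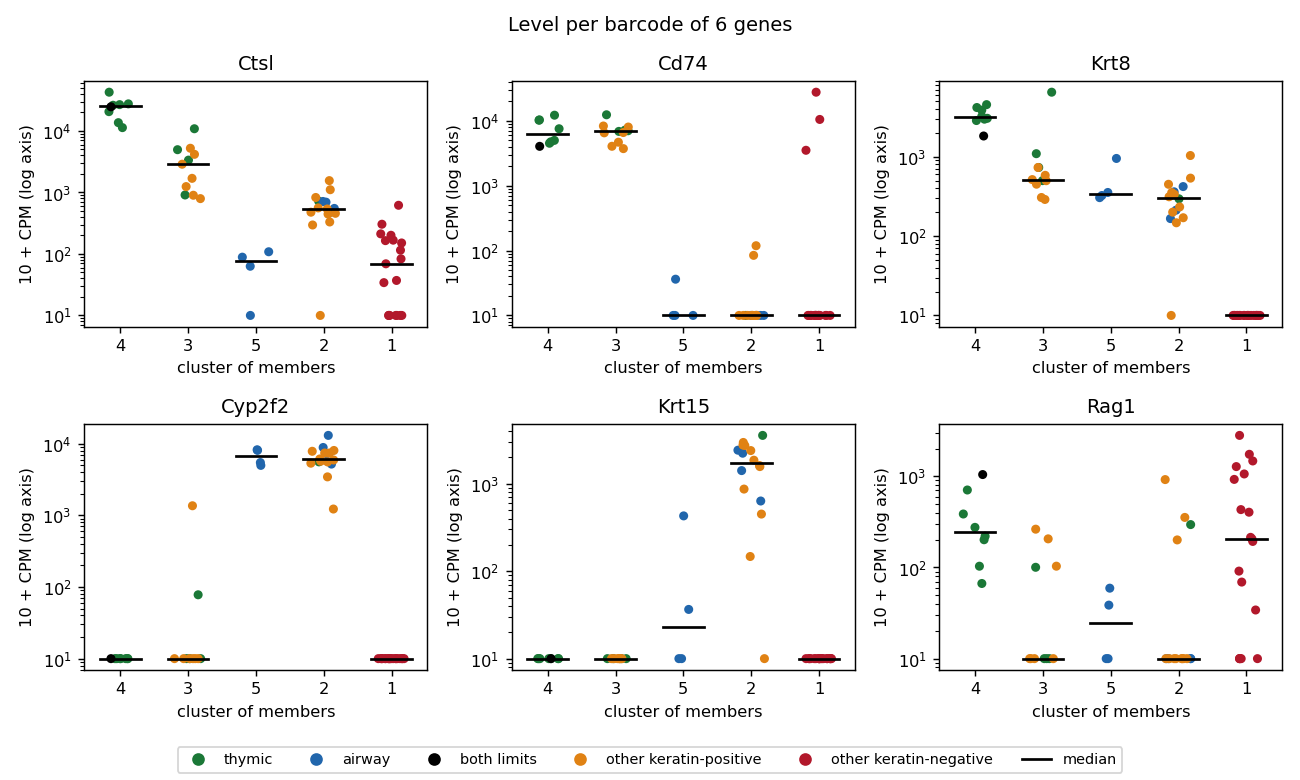
Level of 6 genes in each of the 58 barcodes, as 10 plus CPM on log axes, by cluster and coloured by class, with the median as a bar. Ctsl was highest in cluster 4, Cd74 was high in clusters 4 and 3, Cyp2f2 was high in clusters 5 and 2, Krt15 was high in cluster 2, and Rag1 had its highest medians in clusters 4 (10 UMIs) and 1 (3 UMIs).

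The airway class fell into 2 kinds of cell. Scgb1a1, the main secretoglobin of club cells, was at 15889, 14254, 14060 and 11772 UMIs in 4 cells and at 14, 8, 4 and 3 UMIs in the other 4, with no value between. Bpifa1, an antimicrobial protein of the upper airway, was at 1645 to 2747 UMIs in the first 4 and at 267, 107, 48 and 4 in the others. The first 4 form cluster 5 and the others lie in cluster 2.

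The 4 Scgb1a1-rich cells were dominated by secretory RNA. Scgb1a1 alone made up 369731 CPM, and the club and secretory list was 52.1% to 58.4% of the UMIs of each cell. Scgb3a2 and Scgb3a1 ran from 1148 to 1916 and from 651 to 2958 UMIs. Bpifb1, another BPI-fold protein, ran from 120 to 404, Reg3g, an antibacterial lectin, from 106 to 419, and the mucin Muc5b from 28 to 53. Ltf and Lyz2, an iron binding protein and a lysozyme, each had a cell at 0 and a highest value of 187 and 306. Muc5ac, the goblet cell mucin, had 2 UMIs in 1 cell, and Foxj1, the ciliated cell factor, had 0. Sftpa1, a surfactant protein, ran from 17 to 44 UMIs, while the alveolar gene Sftpc had 0 in all airway cells.

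The other 4 airway cells combined basal and secretory genes. Cyp2f2, the naphthalene-metabolising cytochrome, was at 8071 CPM (7448 to 8733) there and 6718 CPM (6311 to 7143) in the Scgb1a1-rich cells. Krt15 was at 1695 CPM (1416 to 2013) against 112 CPM (65.4 to 180), Trp63, the basal cell factor, at 352 CPM (232 to 512) against 0, and Aqp3, a water channel, at 1004 CPM (792 to 1255) against 46.2 CPM (18.6 to 95.3). Nkx2-1 stood at 378 CPM (253 to 543) against 33.0 CPM (10.7 to 77.1). Ltf was at 0, and Bpifb1, Muc5b and Cyp2a5 had 1 UMI each.

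Most detoxifying enzymes were higher in the pooled airway class. Of 16 measured genes 13 were past the fold toward airway cells and 1 toward thymic cells, against 3.18% and 20.4% of all genes. Their median log2 ratio was -3.85. Aldh1a1, a retinal dehydrogenase, had 374 UMIs in 7 of 8 airway cells and 1 in thymic cells. Of the 374, 355 lay in the 4 Scgb1a1-rich cells and 19 in the other 4. Gsto1, a glutathione transferase, was 64.4-fold (30.9 to 162) higher in airway cells. Gsta3 had 119 UMIs in 8 of 8 cells against 0, at least 58.3-fold. The gene toward thymic cells was Nqo1, a quinone reductase, with 53 UMIs against 3. Of the mucosal defence genes, 9 of 10 measured were past the fold toward airway cells, against 3.18% of all genes, and C3 lay between at 1.76-fold (1.19 to 2.62). Several of them came almost wholly from the 4 Scgb1a1-rich cells, with 1034 of 1035 Bpifb1, 1040 of 1056 Reg3g and 566 of 567 Lyz2 UMIs.

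Secretory airway RNA also reached other cells. At least 1 Scgb1a1 UMI was found in 49.2% of endothelial cells (median depth 4435 UMIs), 62.7% of smooth muscle cells (11472) and 50.6% of thymocyte-class cells (4213). After thinning to 1000 UMIs the shares were 15.9%, 11.0% and 17.7%. Endothelial Scgb1a1 was at 164 CPM (155 to 173) and at most 92 UMIs in a cell. The 4 other airway cells, with 3 to 14 UMIs each, stood above that when pooled, at 378 CPM (253 to 543). The lowest of them was at 201 CPM, and at 3 or 4 UMIs a single cell cannot be told apart from the endothelial level. Cyp2f2 in these 4 airway cells, at 8071 CPM, lay against 7.82 CPM (5.96 to 10.1) in endothelial cells.

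The limit on mesothelial RNA took out the larger group of airway cells. All 16 Epcam barcodes removed by it met the airway limit, with Scgb1a1 at 494 to 28956 UMIs (median 10047) and Bpifa1 at 1609 to 15086 (median 4242). They were removed for Msln, which had 3 to 41 UMIs (median 6). Upk3b had at most 1 UMI, in 1 cell, and the mesothelial markers Lrrn4 and Wt1 were at 0 in all 16, while Upk1b, also on the mesothelial list, was found in 6 of 16 at up to 5 UMIs. Krt8 was found in 16 of 16. Without the limit the airway class held 21 cells instead of 8, so the 8 are part of a larger set of airway cells. Of the 11 barcodes removed by the wall limits, 2 met the thymic and 3 the airway limit.

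The 18 other keratin-positive cells were smaller, at a median of 9835.5 UMIs. Of these, 11 lay in cluster 2 and 7 in cluster 3. In cluster 2 as a whole Cyp2f2 was found in 16 of 16 cells (4 to 210 UMIs, median 54), Krt15 and Krt5 each in 15, and Krt14 in 0. Wfdc2, a secreted protease inhibitor, was found in 16 of 16, and Dapl1 and Abi3bp led the cluster's genes. Sox2 was found in 15 cells and Foxn1 in 0. A cell of 10701 UMIs carried 128 UMIs of the ciliated list, including 30 of Tmem212 and 9 of Foxj1, and every other member held at most 7.

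The 19 keratin-negative barcodes carried T-lineage RNA for the most part. Epcam had 2 to 4 UMIs (median 2), Krt8 and Krt18 were at 0 by definition, and Cdh1 was found in 2 of 19. The thymocyte list gave 0 to 134 UMIs (median 30), with at least 3 in 18 of 19. Rag1 was found in 14 (357 CPM, 286 to 440, against 1180 in the thymocyte class), Dntt, the enzyme that adds bases to receptor joints, in 16, and Lck in 18. The leading genes included Plac8, Ighm and the T cell receptor gamma genes Tcrg-C4 and Trgv2. A barcode of 6269 UMIs held 207 UMIs of B and plasma cell genes, 183 of them Jchain, another held 46, and yet another held 468 Cd74 and 15 dendritic list UMIs. A further barcode, called a doublet, held 2055 erythroid UMIs.

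Hashtag counts differed between the classes. Of 12 thymic cells 0 carried hashtag 1, 8 hashtag 2 and 2 hashtag 3. Of 8 airway cells 6 carried hashtag 1, 1 hashtag 2 and 0 hashtag 3. The 16 airway cells outside the Msln limit carried hashtag 1 in 12, hashtag 2 in 0 and hashtag 3 in 3. Thymic cells were 0.297% (0.128% to 0.585%) of the 2692 filtered cells with hashtag 2 and 0 of the 597 with hashtag 1, which allows up to 0.503% (3 cells) and so does not exclude the share seen with hashtag 2. Airway cells were 1.01% (0.370% to 2.17%) of hashtag 1 cells and 0.0371% (0.000940% to 0.207%) of hashtag 2 cells. No hashtag was called in 6324 of the 11301 filtered barcodes (56.0%). That held for 81.9% of smooth muscle, 9.71% of endothelial and 9.19% of thymocyte-class cells. Shares per hashtag, here and below, are of cells called for that hashtag and do not give the composition of an animal's tissue.

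Thymocyte-class cells followed the thymic pattern, at 6.87% of hashtag 1, 53.9% of hashtag 2 and 35.1% of hashtag 3 cells. Other keratin-positive cells carried hashtags 1, 2 and 3 in 4, 8 and 0, with none in 6, and keratin-negative barcodes in 0, 14 and 3. Calls were weaker in some classes: the hashtag count stood at a median of 3.37 times its cutoff in thymic cells, 1.88 in airway cells and 1.29 in other keratin-positive cells, where 8 of 12 were under 1.5 times. Most airway cells called for hashtag 1 held more raw UMIs of hashtag 2, for example 529 against 242. The cutoffs were 129 UMIs for hashtag 1 and 765 for hashtag 2. With 1 animal for each age, age and animal cannot be told apart.

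**Figure D5:**
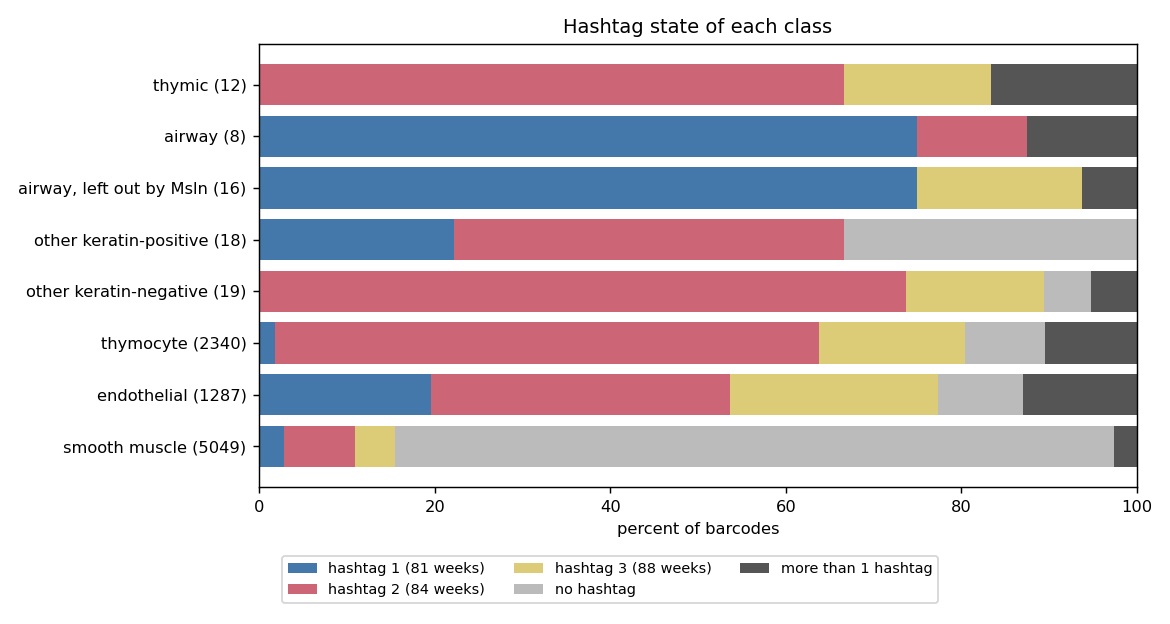
Share of cells in each class by hashtag state, in percent of the class, with the number of cells in parentheses. Thymic, keratin-negative and thymocyte-class bars were mostly hashtag 2, while the airway bars, inside and outside the Msln limit, were mostly hashtag 1.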

How the data were processed

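The deposited matrix holds raw UMI counts of genes and hashtags, not normalised, which the authors made with Cell Ranger 6.0.1 per the file headers; the submitters' processing notes name mm10 and Seurat 4.0.5. All 142108011 gene UMIs belong to a single pool, and depth per library is not kept. A cell annotation was not used here. Hashtags were called with HTODemux of Seurat 5.3.0 (quantile 0.99; cutoffs 129, 765 and 266 UMIs) and doublets with Scrublet in scanpy 1.11.5. Members and gene lists were chosen with earlier results of these data known. Ratios are of pooled CPM with exact conditional binomial 95% intervals. For counts past the fold, medians and bounds, a side with fewer than 3 UMIs over the class was set to 3 UMIs. The ratio printed for Cd74, with 1 airway UMI, uses the counts as measured and is 541 with that setting. Beyond the lists, genes were named as the 15 each way with the highest lower bound among genes past 4-fold with a UMI in at least 25% of the higher class, and the 10 leading genes of each cluster. Members were clustered with the Leiden method (resolution 0.8, 10 neighbours, 20 components, 2000 variable genes, log scale after scaling to 10000 UMIs). Comparison classes needed at least 3 UMIs of endothelial or T cell genes, or at least 1% Myh11 with Tagln, all with 0 Epcam. The ratio script was tested on simulated data. Alternatives changed filters, class limits, weighting, totals and animals.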

Additional observations from a re-analysis of the deposited data

How the results depend on the processing

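The counts of 58, 12 and 8 cells stayed within 1.5 times under the planned filters on depth, mitochondrial RNA, Epcam, doublets and wall RNA; without the Msln limit, chosen after seeing the data, airway cells were 21 and genes higher in airway cells 210. Without members with T cell RNA, 84 genes past the fold were higher in thymic and 48 in airway cells. That setting held 3 thymic and 6 airway cells and 1119 genes tested. The counts were 276 and 69 with at least 50 UMIs (1581 genes tested), and 21 and 12 with cells thinned to 1000 UMIs (138 genes tested). With at least 1 UMI, 227 were higher in airway cells. With totals without the club list 317 were higher in thymic cells, and without the 4 Scgb1a1-rich cells 178; both were chosen after seeing the data. Leaving out each animal among cells with 1 hashtag gave 28 to 517 genes higher in thymic and 47 to 115 higher in airway cells; without the animal of hashtag 1 a single airway cell remained. Of the 97 genes followed, globin genes reversed: Hbb-bs to -0.073 and Hba-a2 to -0.12 on the log2 scale without doublets and with exactly 1 hashtag. Leaving out an animal gave -0.31 to 0.36 for Hbb-bs, -0.46 to 1.06 for Hba-a1 and -0.59 to 1.00 for Hba-a2. The cause was not tested, beyond the fewer genes and cells named. Of the gene values under alternatives 1274 were within the interval, 437 moved and 8 reversed, and 124 had no value because a side had too few UMIs. No paired analysis was possible because the animal of hashtag 2 alone held cells of both classes (8 thymic and 1 airway). Depth limits low genes: in the 8 airway cells (228084 UMIs) a gene at 0 could still be present below the bound given.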
